A study of Homo sapiens with 8 samples.

Results

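The baseline transcriptome described here is that of JVM13 cells carrying the empty vector, measured on 2 of the 8 arrays of the series. The line, long established in culture, grew from the B cells of a human prolymphocytic leukaemia. Both arrays were chosen by title, as the control samples of a study in which cyclin D1, wild type or with the T286A change, was put under a doxycycline-inducible vector in the same line. The control cells received the corresponding vector with no cyclin D1 insert, were grown in RPMI with 10% fetal bovine serum, and were given 0.1 µg/mL doxycycline like every other sample, so the baseline is that of vector-carrying, doxycycline-treated cells and not of untouched JVM13. Whether the 2 control samples were separate cultures is not stated, so the spread between them may be technical. JVM13 is also 1 line from 1 leukaemia, and nothing below extends to other B cells. With 1 group of 2 arrays, nothing was tested, and the values are a description.

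A mature B cell is recognised by its antigen receptor and the CD79 chains that carry the receptor's signal, by CD20 (MS4A1), and by transcription factors such as PAX5 that hold the lineage. B cells enter the cell cycle through D-type cyclins, which bind CDK4 or CDK6 and start the phosphorylation of the retinoblastoma protein. Normal B cells use mainly cyclins D2 and D3, whereas cyclin D1 is switched on by a translocation in mantle cell lymphoma.

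Each of 18231 genes was given 1 value, that of its brightest probe set by the mean of the 8 arrays, among probe sets annotated to 1 gene. Values are RMA log2 signals. RMA is robust multi-array averaging, which corrects background, gives the arrays a common distribution and summarises the probes of a set. Gene values on the control arrays ran from 3.61 to 14.50 with a median of 5.98. Because probe sets differ in how well they bind, a rank is one of signal and not of transcript number, and genes are therefore placed in broad classes. The 334 olfactory receptor genes, which are normally silent outside the nose, had a median of 4.30 and marked the background. A gene was near background when the mean of both arrays was at or below their 95th percentile of 5.01, bright when it was in the top 10% (above 10.50), and intermediate otherwise. By these limits 10.0% of genes were bright (1824), 49.9% were intermediate (9102) and 40.1% were near background (7305). Each list count below is to be read beside these shares. The limits are arbitrary points on a continuous scale. Among the genes of the lists, PGD, BATF and GCSAM lay just inside the bright class at 10.50, 10.51 and 10.51, and HADHB, IDH1 and NR3C1 lay just outside it at 10.48, 10.48 and 10.47. At the other limit, MST1R, IGF1R, HSPA2, ACACB and CDK15 lay between 5.01 and 5.05 and counted as intermediate, while TTR, IGLL1, FLT4, ACKR1 and CXCR5 lay between 4.97 and 5.00 and counted as near background.

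**Figure D1:**
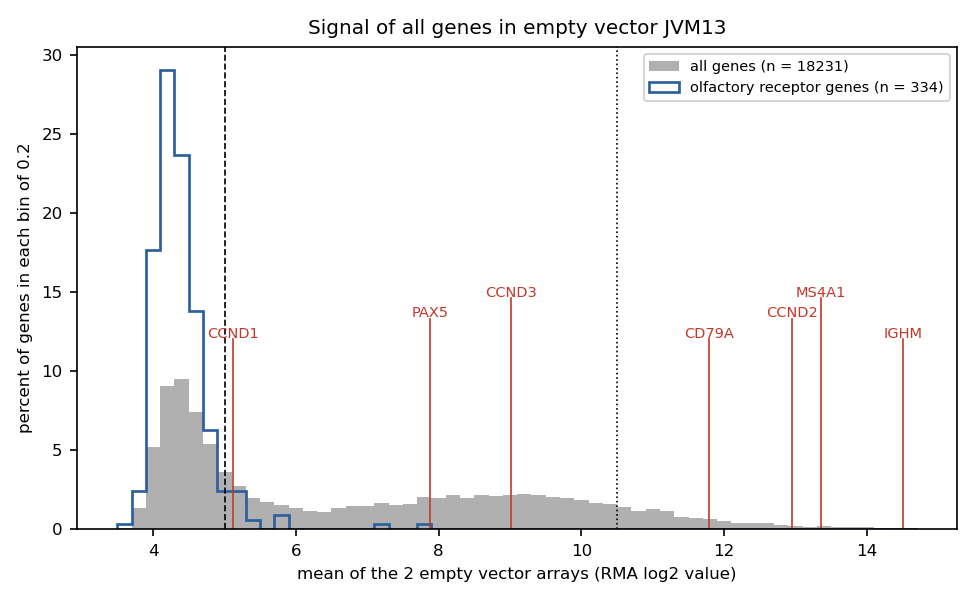
Distribution of the mean RMA log2 signal of the 2 empty vector arrays over all 18231 genes (grey) and over the 334 olfactory receptor genes (blue line), as percent of genes per bin of signal, with the background limit of 5.01 (dashed) and the bright limit of 10.50 (dotted). Red lines mark single genes: CCND1 at 5.12 sits on the edge of the background peak, PAX5 at 7.88 and CCND3 at 9.01 lie between the limits, and CD79A, CCND2, MS4A1 and IGHM lie above the bright limit.

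The B-cell identity of the line was plain in the markers. MS4A1, which encodes CD20, read 13.40 on control array 1 and 13.31 on control array 2, place 123 of 18231 from the brightest. CD79A, the signalling chain of the B-cell receptor, read 11.80 and 11.77, at place 611. PAX5, the factor that commits cells to the B lineage, read 7.77 and 7.99, at place 6580. The first 2 were therefore bright on both arrays and PAX5 was intermediate on both. The other probe sets gave the same class for MS4A1 (12.79 and 11.95, mean of both arrays) and for CD79A (11.59 and 11.37), but the 9 other probe sets of PAX5 lay between 4.29 and 5.93, so its class rests on the chosen one. CD79B, the partner of CD79A, read 10.46 and 10.34, just under the bright limit, and EBF1, an early B-lineage factor, read 10.16 and 10.19.

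The brightest gene of all was a B-cell gene. IGHM, the constant region of the IgM heavy chain, read 14.50 on both arrays, and each of its 3 probe sets was bright. The antibody-joining chain JCHAIN was bright as well, at 11.14 and 11.19. The measured light chain genes gave another picture: IGKC, the kappa constant region, read 5.82 and 5.76, and IGLL5, a lambda-like gene, 5.47 and 5.46, both a little above background, with the 5 other IGKC probe sets all near background between 4.02 and 4.37. Only 6 of the 11 genes of the immunoglobulin list were measured, and none was a lambda constant region. The level of the lambda light chain therefore cannot be told. IGHA1, the IgA heavy chain, read 6.05 on both arrays.

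Of the 45 measured genes of the lists of B-cell surface and transcription factor genes, 16 were bright (35.6%), 21 were intermediate and 8 were near background (17.8%), with a median of 9.38. Over all genes the shares were 10.0% bright and 40.1% near background. Beside MS4A1 and CD79A, the bright surface and signalling genes were the tetraspanin CD53 (12.43 and 12.44), the octamer co-activator POU2AF1 (12.21 and 12.14), the Fc receptor-like protein FCRLA (11.37 and 11.47), the adaptor BLNK (11.43 and 11.36), the kinase BTK (10.78 and 10.57) and TCL1A (10.50 and 10.62). The transcription factors were led by IRF4, which drives plasma cell differentiation, at 12.88 and 12.80. ETS1, XBP1, TCF4, MEF2C, RUNX3, TCF3 and IKZF1 were also bright, between 10.74 and 12.25 as means of both arrays. For most of these factors the class rests on the chosen probe set. IRF4 was bright in 1 of 2, ETS1 and IKZF1 in 1 of 3, RUNX3 and TCF3 in 1 of 4. TCF4 was bright in 3 of 11 and MEF2C in 2 of 4, and XBP1 had 1 probe set. With the mean of all probe sets, 13 genes of both lists were bright in place of 16. Near background were the surface molecules FCRL1, BANK1 (4.03 and 4.14), CD72 (4.01 and 4.09) and CD24 (3.82 and 3.93), and the factors BCL6 (4.49 and 4.71), AFF3, BACH2 (4.37 and 4.13) and SPI1, whose arrays fell on both sides of the limit at 4.66 and 5.09. BCL6 and BACH2 are known as repressors of plasma cell differentiation. PRDM1, the factor they repress, was intermediate at 9.60 and 9.51.

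Genes of other B-cell stages differed from list to list. Of 13 genes of B-cell precursors, 11 were near background, among them RAG1 (4.02 and 4.06), RAG2 (3.84 and 3.94), DNTT, VPREB1, CD34 and MME. The recombinase and the surrogate light chain they encode belong to cells that are still rearranging their receptor genes. The exceptions were SOX4, bright at 11.60 and 11.70, and LEF1 at 7.94 and 8.13. Of 9 germinal centre genes, 4 were near background (LMO2, BCL6, SERPINA9 and MME) and GCSAM alone was bright. These shares, 44.4% and 11.1%, were close to the 40.1% and 10.0% of all genes. All 13 measured plasma cell genes lay above background and 5 were bright. These were the survival receptor TNFRSF17, known as BCMA (12.28 and 12.31), XBP1, JCHAIN, and the secretory and elongation factors SEC11C and ELL2. SDC1, the plasma cell surface marker CD138, was intermediate at 9.95 and 10.06, and MZB1 at 9.99 and 9.82.

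The antigens used to tell B-cell leukaemias apart were mixed. CD200 (10.81 and 10.74), CD52 (10.71 and 10.55) and TCL1A were bright, and CD23 (FCER2, 9.77 and 9.59) and CD38 (9.66 on both arrays) were intermediate. CD5 read 5.31 and 5.08, close to the background limit on both arrays. ROR1, LPL, CD1C and SOX11 were near background on both arrays. Of 24 genes known from activated and lymphoblastoid B cells, 11 were bright and 0 were near background. CCR7, a homing receptor, read 12.52 and 12.54, and the T-cell ligands CD48 (12.35 and 12.34), CD70 (11.96 and 11.91) and CD58 (11.25 and 10.91), the chemokine CCL3 (11.96 and 11.95) and CD40 (11.35 and 11.28) followed in the same class. EBI3, CCL22, CD86, GPR183 and BATF were the other bright ones.

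Antigen presentation was measured high in both branches. Of 14 genes of the MHC class II pathway, 7 were bright and 0 near background: the chains HLA-DPA1 (13.50 and 13.54), HLA-DRA (12.95 and 12.96), HLA-DQA1, HLA-DRB1 and HLA-DPB1, the invariant chain CD74 (11.87 and 11.92) and the reductase IFI30. CIITA, the regulator that switches these genes on, was intermediate at 6.58 and 6.19. Of 12 class I genes, 9 were bright and 0 near background, with B2M at 14.13 and 14.09 and HLA-B at 13.76 and 13.78. HLA probe sets can read relatives of the named gene, so single HLA values are uncertain.

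Markers of other cell types were mostly near background. Over 6 lists for T, NK, myeloid, erythroid and platelet, stromal and epithelial cells, 69 of 92 genes (75%) were near background, 22 were intermediate and 1 was bright, with a median of 4.63. Over all genes 40.1% were near background and the median was 5.98. The T-cell receptor chains CD3D (4.10 and 4.21), CD3E (4.72 and 4.73) and CD3G (4.72 and 5.00) were near background, as were CD247 and CD2. So were NCR1 and KLRF1 of NK cells, CD14, LYZ, CSF1R, MPO and S100A8 of myeloid cells, ALAS2, ITGA2B and PF4 of the erythroid and platelet lines, COL1A1, COL1A2 and DCN of stroma, and EPCAM, KRT8, KRT18 and CDH1 of epithelium. A few defining markers were just above the limit: HBB (5.07 and 5.14), KLRD1 (5.24 and 5.36) and NCAM1 (5.81 and 5.55), and PECAM1 was clearly above it at 8.18 and 8.11.

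The single bright gene among those lists was EOMES, a T-box factor of cytotoxic T and NK cells, at 11.17 and 11.12; its 6 probe sets all lay between 8.63 and 11.14. Its companion TBX21 was intermediate at 7.20 and 7.26, while the cytotoxic granule genes GZMA, GZMB, GZMK and NKG7 were near background. Other genes of these lists above the median of all genes were VCAN (8.90 and 9.14), ITGAM (7.75 on both arrays), ACTA2, ELF3, CLDN4, GATA3 (7.56 and 7.53), LCK (7.51 and 7.31), CD7, PRF1, HBG1 and PDGFRB. Of 61 genes restricted to other organs, 50 were near background (82.0%, against 40.1% of all genes) and 0 were bright. The other 11 were intermediate, of which 6 lay within 0.5 of the background limit and 5 further above it: KRT10 (9.94 and 9.86), PRL (9.55 and 9.57), POMC (8.14 and 8.31), MBP (7.99 and 7.98) and AMELX (6.77 and 7.08). PRL and POMC encode pituitary hormones, KRT10 a skin keratin, MBP a myelin protein and AMELX an enamel protein.

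**Figure D2:**
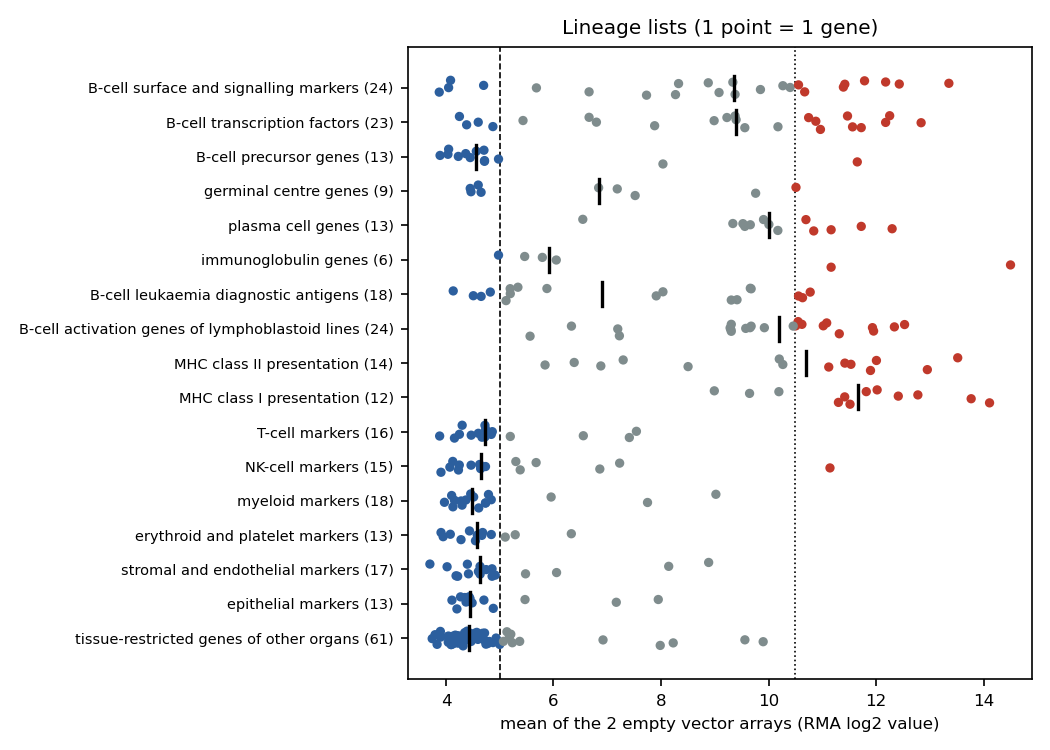
Mean RMA log2 signal of the 2 empty vector arrays for every measured gene of the lineage lists, 1 point per gene, coloured red when bright, grey when intermediate and blue when near background, with the list median as a black bar and the number of genes in brackets. B-cell, plasma cell, activation and MHC lists spread over the upper range, and the T, NK, myeloid, erythroid, stromal, epithelial and tissue-restricted lists crowd below the background limit of 5.01 (dashed), with EOMES at 11.14 alone above the bright limit of 10.50 (dotted).

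Among the D-type cyclins, those of cyclin D2 and cyclin D3 were well above background and that of cyclin D1 was not. CCND2 read 12.97 and 12.93, place 180 of 18231, and 2 of its 3 probe sets were bright. CCND3 read 9.05 and 8.98, intermediate on both arrays, although its second probe set was near background at 4.07. CCND1, the gene that the other samples of the study were built to express, read 5.25 and 4.98: 1 array lay above the background limit of 5.01 and the other below it. Its mean of 5.12 was 0.11 above the limit, and its 3 other probe sets lay between 4.07 and 4.40. With control array 2 alone the gene was 0.15 below the limit of that array, so whether CCND1 is above background cannot be told from these 2 arrays. The kinase partners were both bright and close between arrays, CDK4 at 11.13 and 11.07 and CDK6 at 11.05 and 11.06. For CDK4, 3 of 4 probe sets were bright and the lowest was 10.14. For CDK6 only 1 of 4 was bright and the lowest was 8.02, so its class rests on the chosen one.

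Of the 8 other cell-cycle cyclins 3 were bright, 3 were intermediate and 2 were near background. CCNB1 (11.32 and 11.35) and CCNB2 (11.09 and 11.01), the mitotic cyclins, and CCNA2 (10.67 and 10.74), the cyclin of S phase and G2, were bright. CCNE1, CCNE2 and CCNF were intermediate, and the germline forms CCNA1 (4.38 and 4.58) and CCNB3 (4.65 and 4.75) were near background. Of 24 proliferation genes, 15 were bright and 0 near background, with the thymidylate synthase TYMS at 13.24 on both arrays, the replication clamp PCNA at 13.21 and 13.07, and the helicase subunit MCM7, UBE2C, TOP2A and RRM2 above 12 as means. MKI67, the gene of the Ki-67 antigen, read 10.71 and 10.47. Of 18 other cyclin-dependent kinases only CDK1 was bright (11.56 and 11.44) and 0 were near background by the chosen probe set. CDK15 lay only 0.04 above the limit. Several had other probe sets near background, among them CDK20 (4 of 5), CDK18 (3 of 5), CDK19 (3 of 5) and CDK10 (3 of 8). CDK2, the partner of cyclins E and A, read 9.85 and 9.92.

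Inhibitors of these kinases were among the bright genes as well. CDKN1A, which encodes p21, read 12.23 and 12.19. CDKN3, a phosphatase that acts on CDK2, read 11.09 and 11.06. CDKN2A, the gene of p16 and ARF, read 10.61 and 10.55, but its other probe sets gave 7.64 and 7.05 as means, so the bright class belongs to 1 probe set. CDKN2B (4.51 and 4.44), which lies next to CDKN2A, and CDKN1C (4.44 and 4.35) were near background, and CDKN1B, the gene of p27, was intermediate at 8.90 and 8.73. The pocket proteins RB1 (9.90 and 9.75), RBL2 (9.15 and 8.97) and RBL1 (7.46 and 7.22) were all intermediate. Of 19 cyclins that act in transcription or elsewhere, CCNI, CCNC, CCNK and CCNG1 were bright between 11.19 and 11.27, and CCNI2, CCNP, CCNO and CNTD1 were near background. In the BCL2 family of apoptosis regulators, BCL2A1 (11.90 and 11.76), PMAIP1, MCL1 and BAX were bright. BCL2 was intermediate at 9.71 and 9.82, and HRK alone was near background by the chosen probe sets. The other probe set of BCL2A1 gave 4.03 and that of BAX 7.82 as means, and MCL1 was bright in 1 of 6. HRK had 1 probe set. The intermediate genes BCL2L11 and BOK had 12 of 14 and 2 of 3 probe sets near background.

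**Figure D3:**
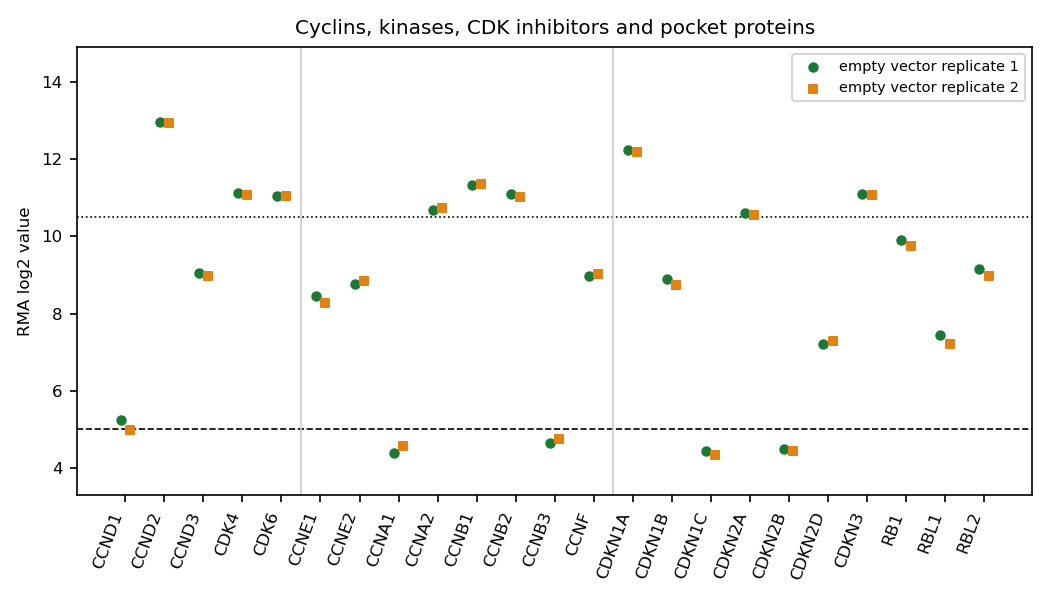
RMA log2 signal on empty vector array 1 (green circles) and array 2 (orange squares) for the D-type cyclins and their kinases (left), the other cell-cycle cyclins (middle) and the CDK inhibitors and pocket proteins (right), with the background limit of 5.01 (dashed) and the bright limit of 10.50 (dotted). CCND1 is the only gene shown whose arrays lie on both sides of the background limit, at 5.25 and 4.98, while CCND2, CDK4 and CDK6 are above the bright limit on both arrays.

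Promoter sequences of CCNB1 and CCNB2, both bright, are shown as examples of windows that hold the CCAAT box. A window of 300 bases, 250 before and 50 after the start site, was taken from RefSeq (GRCh38.p14) for 14483 of the genes and searched on both strands for 6 motifs: the octamer ATGCAAAT, the TATA box TATAAA, the CCAAT box CCAAT, the ETS site CCGGAAG, the NRF1 core GCGCATGC and the SP1 site GGGCGG. Matches of different motifs were allowed to overlap. CCAAT was found in 36.4% of all windows, in 40.5% of those of bright genes and in 34.2% of those of genes near background. Among proliferation genes 14 of 18 windows held it (77.8%), and among the other cell-cycle cyclins 4 of 7. CCNB1, chr5:69166900-69167199 (plus strand), has 2 matches, with first bases 87 and 55 before the start site. CCNB2, chr15:59104896-59105195 (plus strand), has 4 matches, at 244, 120, 87 and 54 before it. Capitals mark CCAAT or its reverse complement, and a match is a description of letters, not of a bound site.
CCNB1: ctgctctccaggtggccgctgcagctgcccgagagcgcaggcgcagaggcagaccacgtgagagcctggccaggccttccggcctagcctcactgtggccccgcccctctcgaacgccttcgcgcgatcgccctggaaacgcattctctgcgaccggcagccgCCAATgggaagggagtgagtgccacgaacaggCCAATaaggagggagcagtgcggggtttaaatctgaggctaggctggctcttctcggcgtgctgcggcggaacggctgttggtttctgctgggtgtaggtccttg
CCNB2: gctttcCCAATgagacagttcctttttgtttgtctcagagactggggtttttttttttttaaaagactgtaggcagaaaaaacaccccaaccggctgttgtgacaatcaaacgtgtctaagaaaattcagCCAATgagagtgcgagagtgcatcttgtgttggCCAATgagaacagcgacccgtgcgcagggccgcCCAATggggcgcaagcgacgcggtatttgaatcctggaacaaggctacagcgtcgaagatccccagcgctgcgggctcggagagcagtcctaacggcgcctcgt

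MHC class II genes, 7 of 14 of them bright, had CCAAT in 10 of 11 windows (90.9%), and few CpG dinucleotides, with a median of 3. CD74, chr5:150412861-150413160 (minus strand), has 1 match at 53 before the start site. HLA-DMA, chr6:32953048-32953347 (minus strand), which was intermediate at 8.66 and 8.34, has 2 matches at 79 and 49 before it on the opposite strand. Both are printed with CCAAT or its reverse complement in capitals.
CD74: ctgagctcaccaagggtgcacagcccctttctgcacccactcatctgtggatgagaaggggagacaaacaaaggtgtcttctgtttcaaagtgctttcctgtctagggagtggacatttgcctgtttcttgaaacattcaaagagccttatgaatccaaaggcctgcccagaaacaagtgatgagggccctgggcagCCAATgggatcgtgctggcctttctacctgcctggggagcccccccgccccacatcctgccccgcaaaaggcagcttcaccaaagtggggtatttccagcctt
HLA-DMA: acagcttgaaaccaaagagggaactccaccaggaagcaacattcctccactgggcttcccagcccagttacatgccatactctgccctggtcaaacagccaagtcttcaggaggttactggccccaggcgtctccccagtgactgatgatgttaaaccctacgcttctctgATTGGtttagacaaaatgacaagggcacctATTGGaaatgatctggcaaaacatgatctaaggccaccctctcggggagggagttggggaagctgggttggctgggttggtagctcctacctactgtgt

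The median number of CpG dinucleotides per window was 26 for bright genes, 26 for intermediate genes and 11 for genes near background, against 1 for olfactory receptor genes, and 87.4%, 79.5% and 45.0% of windows in the 3 classes held 15 or more. The TATA box was found in 7.38% of bright, 5.71% of intermediate and 14.6% of near-background windows (9.22% of all), and the ETS site in 24.2%, 19.5% and 5.01% (14.5% of all). The SP1 site was found in 59.8% of all windows and the NRF1 core in 4.29%. Windows of respiratory chain genes held the ETS site in 8 of 23 cases (34.8%) and the NRF1 core in 4 (17.4%). The B-cell lists had a median of 11.5 over 38 windows of all classes, and of 26 over the 13 windows of their bright genes. A CpG-rich and a CpG-poor window of bright genes are shown as examples: CDK6, chr7:92836524-92836823 (minus strand), has 37 CpG dinucleotides, and FCRLA, chr1:161706979-161707278 (plus strand), has 1. CpG is in capitals.
CDK6: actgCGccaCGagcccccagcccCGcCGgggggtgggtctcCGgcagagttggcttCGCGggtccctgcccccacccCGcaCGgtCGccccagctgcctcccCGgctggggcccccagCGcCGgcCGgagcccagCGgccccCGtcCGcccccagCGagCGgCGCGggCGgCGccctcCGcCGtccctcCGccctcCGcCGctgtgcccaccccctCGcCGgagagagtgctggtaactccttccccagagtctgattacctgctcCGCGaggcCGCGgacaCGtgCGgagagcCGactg
FCRLA: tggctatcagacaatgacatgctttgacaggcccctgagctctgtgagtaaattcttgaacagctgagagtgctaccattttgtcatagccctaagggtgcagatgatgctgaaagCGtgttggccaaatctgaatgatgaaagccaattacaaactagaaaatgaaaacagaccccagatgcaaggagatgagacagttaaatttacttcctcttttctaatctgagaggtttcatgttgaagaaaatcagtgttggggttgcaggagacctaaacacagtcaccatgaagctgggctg

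The octamer, the element through which POU2F2 and POU2AF1 act on immunoglobulin and other B-cell genes, was rare at 1.62% of all windows. It was found in 2 of 38 windows of the B-cell lists. One was that of the bright gene CD53, chr1:110870960-110871259 (plus strand), where it lies on the opposite strand with its first base 46 before the start site and is shown in capitals. No match elsewhere says only that these letters are not in the window.
CD53: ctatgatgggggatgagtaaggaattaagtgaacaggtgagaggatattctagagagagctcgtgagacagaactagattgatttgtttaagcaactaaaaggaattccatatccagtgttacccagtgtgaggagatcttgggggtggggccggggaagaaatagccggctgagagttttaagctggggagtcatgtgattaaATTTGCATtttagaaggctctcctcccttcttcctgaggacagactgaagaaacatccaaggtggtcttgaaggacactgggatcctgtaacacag

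Over all receptor lists, 21 of 230 genes were bright (9.13%) and 92 were near background (40%), close to the shares over all genes. Of 20 chemokine receptors 14 were near background, and the bright ones were CCR7 and CXCR4 (11.32 and 11.33), the receptors for lymph node and marrow homing. CXCR5, the receptor that guides B cells into follicles, lay at the limit with 5.03 and 4.91. CCR10 (8.16 and 8.23), ACKR3, CCR9 and CXCR3 were intermediate. Of 29 cytokine receptor chains, IL2RB was the bright one at 11.27 and 11.30; the shared gamma chain IL2RG was intermediate at 8.58 and 8.61 and IL2RA, which completes the high-affinity IL-2 receptor, was intermediate at 5.91 and 5.85. IL21R (9.79 and 9.82), IL10RB, IL6ST and the interferon receptor chains IFNAR1, IFNGR2 and IFNGR1 were intermediate, and IL7R, IL5RA, CSF2RA and EPOR were near background.

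The TNF receptor family held both extremes. The receptors for BAFF and APRIL split: TNFRSF17 (12.28 and 12.31) and TNFRSF13B, known as TACI (11.97 and 11.93), were bright, whereas TNFRSF13C, the BAFF receptor, read 5.41 and 5.16, not far above background. CD40 and the death receptor FAS (11.07 and 10.99) were the other bright ones of 22, and 7 were near background, TNFRSF11A and TNFRSF21 lowest. Of 12 Toll-like receptor genes 0 were bright and 6 were near background. TLR10 (9.98 and 10.01) and TLR7 (8.73 and 8.99) were intermediate, and TLR9, the DNA sensor of B cells, was near background at 4.53 and 4.70.

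Of 18 Fc and Fc-like receptors 2 were bright. PIGR, the epithelial transporter of polymeric IgA and IgM, read 11.68 and 11.67, and FCRLA was described above. FCRL5, FCMR, FCGR2B and FCER2 were intermediate, and FCRL1, FCRL3, FCGR1A, FCGR3A and FCER1A near background. Of 37 receptor tyrosine kinases 19 were near background, including EGFR (4.96 and 4.97), KIT and FLT3. EPHB1, an ephrin receptor known from the nervous system, was the single bright one at 10.92 and 11.03, and DDR1 (9.54 and 9.55), INSR (8.30 and 8.24), FGFR1 and NTRK2 were intermediate. The bright class of EPHB1 rests on 1 of its 6 probe sets, which ran from 3.98 to 10.98 as means, with 1 near background. IGF1R lay at the limit with 5.03 on both arrays.

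Among 27 receptors for lipids, nucleotides and other small ligands, GPR183 (11.07 and 10.97), P2RY8 (11.00 and 11.02) and P2RX5 (10.93 and 10.88) were bright and 11 were near background. The sphingosine receptor S1PR1 was intermediate at 8.41 and 8.38, S1PR2 at 6.76 and 6.92, and S1PR3 was near background. Of 23 adhesion molecules 6 were bright, CD44 (12.60 and 12.65), CD99, ICAM3, ITGB7, CD47 and CD58, and SELE, ITGA5 and ITGA6 were near background. Of 24 nuclear receptors 0 were bright and 10 were near background; the glucocorticoid receptor NR3C1 was just short of the bright class at 10.43 and 10.51, followed by RORA at 9.17 and 9.21. Of 19 inhibitory and co-stimulatory receptors CD200 and CD86 were bright, BTLA (10.39 and 10.48) was intermediate, and CTLA4 (4.19 and 4.17), CD72, HAVCR2, LAIR1 and TIGIT were near background.

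**Figure D4:**
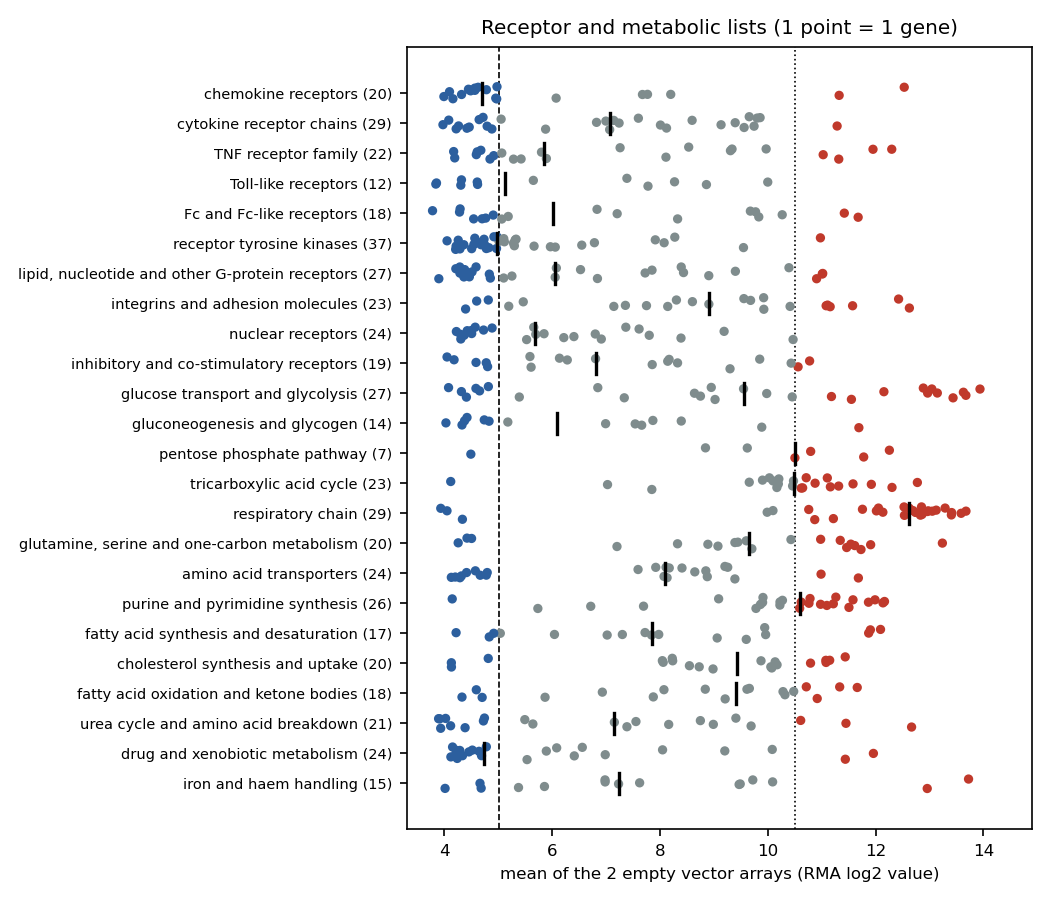
Mean RMA log2 signal of the 2 empty vector arrays for every measured gene of the receptor lists (upper rows) and the metabolic lists (lower rows), coloured red when bright, grey when intermediate and blue when near background, with list medians as black bars and gene numbers in brackets. The list medians run from 4.70 for chemokine receptors to 12.62 for the respiratory chain, against 5.98 for all genes, with the background limit at 5.01 (dashed) and the bright limit at 10.50 (dotted).

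Metabolic genes were bright in 94 of 284 cases (33.1%) and near background in 63 (22.2%), against 10.0% and 40.1% of all genes. The lists differed. The bright share was 7.14% for gluconeogenesis and glycogen and 8.33% each for amino acid transporters and drug metabolism, a little below that of all genes. Among the metabolic lists the respiratory chain had the largest bright share, with 24 of 29 genes bright, among them COX7C (13.69 and 13.66), COX6A1, COX6C, ATP5F1A and ATP5MC3. The 3 genes near background were COX6A2, COX4I2 and COX7A1, alternative subunits of cytochrome oxidase used in muscle or lung, whereas the common subunits COX6A1, COX4I1 and COX7A2 of the same positions were bright at 13.59, 12.53 and 13.05 as means. In the tricarboxylic acid cycle 11 of 23 genes were bright, led by MDH1 (12.75 and 12.79), MDH2 and DLD, and the cytosolic malic enzyme ME1 alone was near background, at 3.99 and 4.25. Of 7 pentose phosphate genes 4 were bright, TALDO1 (12.25 and 12.26), TKT, RPIA and, at the limit, PGD.

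Glycolysis showed 1 bright form for most steps. GAPDH read 13.94 and 13.93, and LDHA, PGAM1, LDHB, ENO1, TPI1, PGK1, ALDOA, GPI, PKM and HK1 were bright too, 11 of 27 genes in all. Some forms known from other tissues were near background, namely the testis forms PGK2 (4.20 and 4.43) and GAPDHS, the muscle form PGAM2, the liver and red cell form PKLR, and the glucose transporters SLC2A2 of liver and SLC2A4 of muscle and fat. Hexokinase 2 was intermediate (8.58 and 8.92) and hexokinase 3 closer to background (5.29 and 5.49). No phosphofructokinase was bright by its mean: PFKP read 10.57 and 10.33, PFKM 9.55 on both arrays, and PFKL 8.66 and 8.62. The further enolases ENO2 and ENO3, the aldolase ALDOC, the sperm lactate dehydrogenase LDHC (7.35 and 7.32) and the transporter SLC2A1 (9.12 and 8.92) were intermediate. Of the enzymes of glucose synthesis and release, FBP1 (4.82 and 4.83), FBP2, PCK1 and G6PC1 were near background. The mitochondrial PCK2 (8.43 and 8.36), G6PC3 (6.90 and 7.08) and PC (5.12 and 5.23) were intermediate. Glycogen phosphorylases PYGB and PYGL were intermediate and the muscle form PYGM near background, and UGP2, which makes UDP-glucose, was the 1 bright gene of that list of 14.

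**Figure D5:**
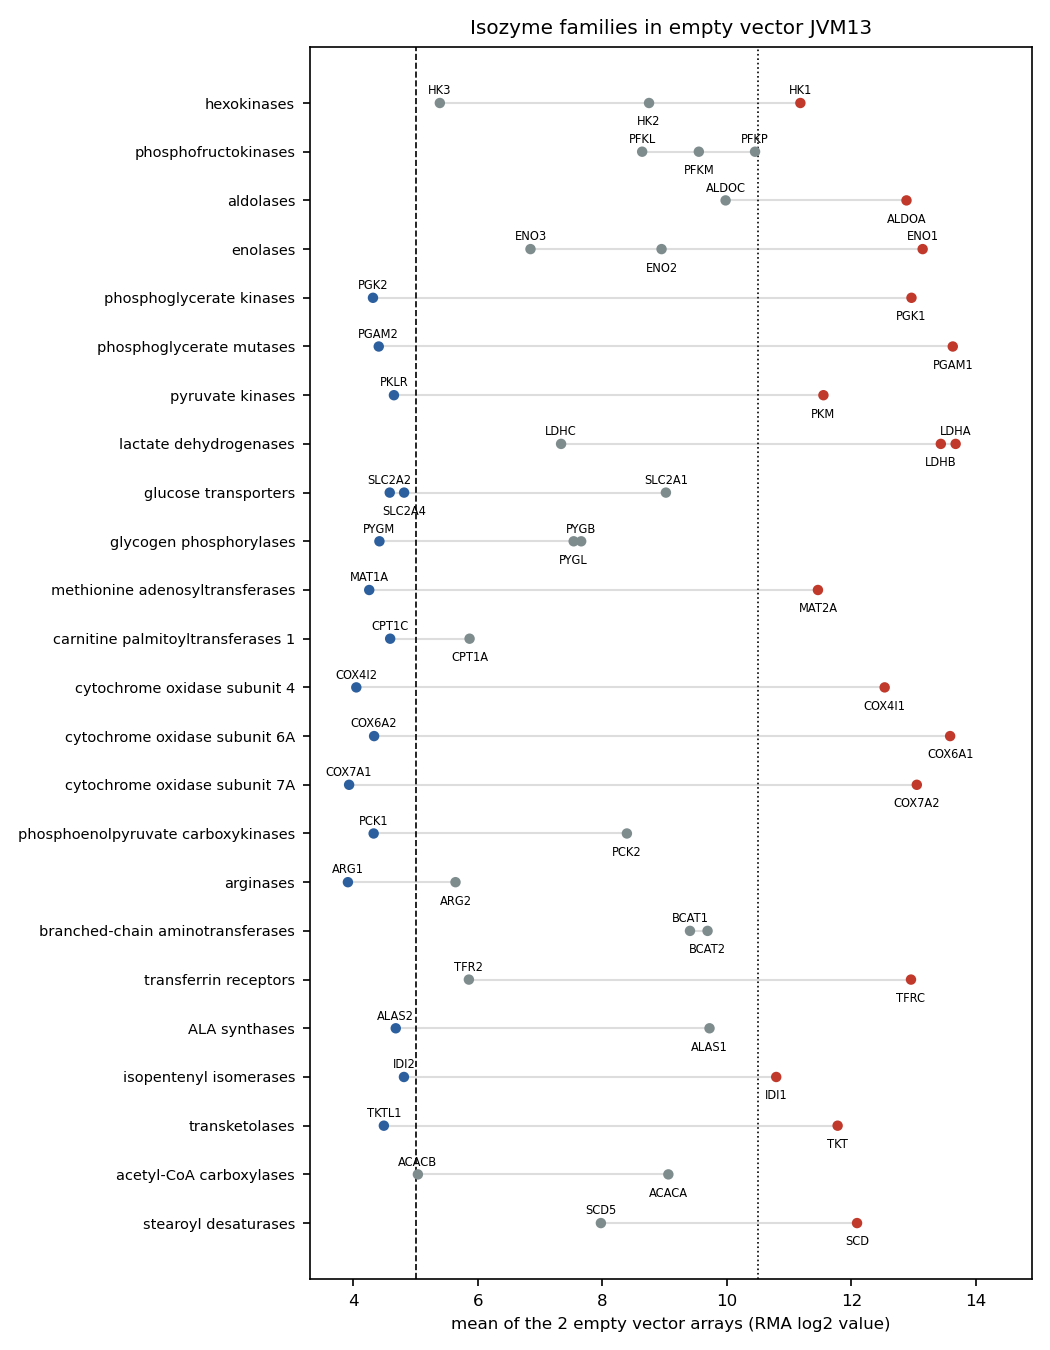
Mean RMA log2 signal of the 2 empty vector arrays for families of enzymes and transporters that do the same step, 1 point per gene, coloured red when bright, grey when intermediate and blue when near background, with lines joining the members of a family, the background limit at 5.01 (dashed) and the bright limit at 10.50 (dotted). In families such as the phosphoglycerate kinases (PGK1 at 12.96, PGK2 at 4.32) and cytochrome oxidase subunit 7A (COX7A2 at 13.05, COX7A1 at 3.93) 1 member is bright and the other near background, whereas both branched-chain aminotransferases are intermediate.

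In nucleotide synthesis 14 of 26 genes were bright, among them the salvage enzyme HPRT1 (12.12 and 12.20), the reductase subunits RRM2 and RRM1, IMPDH2, PAICS and ADSL; ADSS1, the muscle form of adenylosuccinate synthase, was near background. In glutamine, serine and one-carbon metabolism 8 of 20 were bright, including TYMS, MTHFD2 (11.88 and 11.94), GLUD1, MTHFD1, GOT2 and MAT2A. Glutamine synthetase, GLUL, was near background at 4.51 and 4.50, as were the liver enzymes BHMT and MAT1A. PHGDH, the first enzyme of serine synthesis, was intermediate at 7.09 and 7.31. Asparagine synthetase, ASNS, was bright at 10.98 on both arrays. Of 24 amino acid transporters, SLC38A1 (11.66 and 11.70) and SLC38A2 (11.01 and 10.97) were bright and 9 were near background.

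In lipid metabolism, the desaturase SCD (12.12 and 12.06), the elongase ELOVL5 and the citrate lyase ACLY were bright among 17 genes of fatty acid synthesis, and FASN itself was intermediate at 7.57 and 7.88. ACACA was intermediate (9.08 and 9.04), and its muscle and heart counterpart ACACB straddled the background limit (4.87 and 5.20). SCD5, the second desaturase, was intermediate at 8.05 and 7.91. Of 20 cholesterol genes 5 were bright, FDPS (11.51 and 11.36), SQLE, CYP51A1, MSMO1 and IDI1. The exporter ABCA1, the liver enzyme CYP7A1 and IDI2 were near background. Fatty acid oxidation had 4 bright genes of 18, ACADM (11.67 and 11.64), HADHA, ACAT1 and ECHS1, while the entry enzyme CPT1A was intermediate at 6.05 and 5.68 and CPT1C near background.

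Among 21 genes of the urea cycle and amino acid breakdown 8 were near background, including ARG1 (3.88 and 3.95), OTC and HPD. The bright ones were ODC1, which starts polyamine synthesis (12.68 and 12.65), and a pair of tryptophan-degrading enzymes, TDO2 (11.52 and 11.38) and KYNU (10.56 and 10.66). TDO2 is best known from liver, and IDO1, which does the same step in immune cells, was near background at 4.26 and 4.51. ARG2 was intermediate at 5.62 and 5.66, and BCAT1 (9.43 and 9.39) and BCAT2 (9.70 and 9.68) were intermediate. Of 24 genes of drug metabolism 13 were near background, and the glutathione transferases GSTP1 (11.99 and 11.93) and GSTO1 were bright. Among 15 iron and haem genes, the ferritin chain FTL (13.71 and 13.73) and the transferrin receptor TFRC (12.95 and 12.97) were bright, TFR2 was intermediate, and the iron exporter SLC40A1 (3.89 and 4.13), TF and the red cell enzyme ALAS2 were near background; ALAS1 was intermediate at 9.72 and 9.73.

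The very top of the ranking was held by the translation machinery. Of the 30 brightest genes 19 were cytosolic ribosomal protein genes by their RPL or RPS symbol, as were 40 of the 60 brightest, and all 30 measured members of the ribosomal list were bright (12.38 to 14.36). The others among the first 30 were IGHM, the actin gene ACTB, PTMA, the chaperone HSPA8, EEF1A1, B2M, PABPC1, NPM1, TPT1, the histone gene H4C3 and DCAF6. DCAF6 rests on 1 probe set, at 14.11 and 14.16, and none of its 5 others was bright. RPL37A was bright in 1 of 6 probe sets and RPL32 in 1 of 3. All of the first 30 but RPL11 were read by probe sets named _x_at or _s_at, which can also read related sequences. The order at the top is therefore uncertain. Without such probe sets 16772 genes were left and the bright limit was 10.04. Then 178 list genes were bright, against 231 with them. Of 18 stress chaperones 11 were bright, with HSP90B1, HSPD1, HSP90AB1 and HSP90AA1 beside HSPA8, and the inducible HSPA6 was near background at 4.25 and 4.64.

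The 2 control arrays agreed closely. They may not be separate cultures, and RMA gives the arrays a common distribution, so this agreement may be technical. It does not show how well a probe set reads its gene. Across genes the correlation was 0.998 (Pearson) and 0.987 (Spearman), as a description, since genes are not independent replicates. The median absolute difference between the arrays was 0.0969 over all genes, 0.0456 for bright genes, 0.0962 for intermediate genes and 0.122 for genes near background. Only 289 genes differed by more than 0.5 and 5 by more than 1, and the largest difference of a bright gene was 0.434. Classified on each array alone, 17519 genes (96.1%) fell in the same class on both, 0 were bright on one and near background on the other, and 34 of the 911 measured list genes differed in class.

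Among genes above background, the 10 with the largest differences were GOLGA8A (8.47 and 6.77), AHSA2P (7.31 and 5.95), ZNF767P, PILRB, the cyclin L2 gene CCNL2 (8.48 and 7.50), PABPC1L, PLEKHG6, NINJ1, GOLGA6L9 and SFMBT2, of which PLEKHG6 and SFMBT2 were higher on array 2 and the other 8 on array 1. Of 11820 genes with more than 1 probe set, 4007 had one in another class, and of 1462 bright genes with several, 246 (16.8%) had one near background. The intermediate genes CD79B and CCND3 had 1 near background too, and PAX5 had 4 of its 10. A value near background therefore does not show that a transcript is absent.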

How the data were processed

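RNA of 8 JVM13 samples was measured on an Affymetrix human array, and the 2 empty vector samples are described here. The authors deposited log2 values; the submitters' processing notes name RMA and R 3.5.0. RMA equalises the distributions of all arrays, so levels are relative within an array. No detection calls were used. The table held 48864 probe sets. Control probe sets (10), those annotated to several genes (1325) and those annotated to none (2309) were left out, which left 45220. Array medians of both controls were 5.62 and 5.59, 0 pairs of control arrays were identical and 0 values were missing. The number of arrays limits the precision.

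Names come from the platform annotation, and 18175 of 18231 genes had a RefSeq identifier. The 50 gene lists had 1004 genes, of which 911 were measured. The members and lists were chosen with earlier results of these data known, so no list count is independent evidence. Genes were named by a rule: the markers with the D-type cyclins and their kinases, the 30 brightest genes, the highest and lowest members of each list, all isozymes, the genes nearest the background limit and those with the largest array differences; a few others were named after their values were seen. Promoters are from RefSeq, GRCh38.p14, with 3748 genes unmatched. Calculations used Python 3.11.15, pandas 2.3.3, numpy 2.4.6 and scipy 1.17.1, and the classification was tested on simulated data. In those data silent and expressed genes were set well apart, so the check says nothing about genes near the background limit. Alternatives were the choice of probe set, the background reference, both limits and leaving out each array.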

Additional observations from a re-analysis of the deposited data

How the results depend on the processing

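No paired analysis was possible because no result comes from a test and only 1 group was described. The class limits set the counts of the report. With the 95th percentile of tissue-restricted genes as the background (7.99 in place of 5.01), 11828 genes were near background, as were 472 list genes, 14 genes of the B-cell lists and 1 gene of the D-type cyclin list, and PAX5 lay at -0.10 from the limit. With bright taken as the top 5% or the top 20%, 912 or 3647 genes were bright, and under the top 5% the D-type cyclin list kept 1 bright gene, CCND2.

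CCND1 lay 0.11 above the background limit and turned to -0.50 with the mean of all probe sets, -0.63 with the 99th percentile of olfactory receptor genes and -2.87 with tissue-restricted genes. Leaving out each array gave -0.15 (without array 1) to 0.26, and 0 to 1 gene of the D-type cyclin list near background, against 1 with the mean of probe sets or the 99th percentile. Of 100 list counts, 97 and 99 stayed within 1.5 times without array 1 or array 2, and 70 with tissue-restricted genes, the fewest of the alternatives run. Dim signals have no detection call, so values near 5.01 cannot be ordered.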

Other observations

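Gene families gathered by symbol, after their values were seen, filled the classes unevenly against 10.0% bright and 40.1% near background over all genes. Bright were 31 of 35 proteasome subunits, 29 of 35 NADH dehydrogenase subunits, 8 of 9 subunits of the chaperonin CCT, 34 of 51 translation initiation factors, 37 of 76 mitochondrial ribosomal proteins and 10 of 17 aminoacyl-tRNA synthetases. The exception in the chaperonin, CCT6B, is the testis form and was near background. Of 490 zinc finger genes named ZNF, 4 were bright (0.816%) and 184 were near background. Of 48 keratins, 68 protocadherins and 25 bitter taste receptors 0 were bright, and 42, 65 and 24 were near background. CYP51A1, of cholesterol synthesis, was the bright one of 51 cytochrome P450 genes.

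Several bright genes are better known from other tissues and were picked after their values were seen. MMP7, a matrix metalloprotease of epithelia, read 11.37 on both arrays, and BCHE, the plasma cholinesterase made in liver, read 11.43 and 11.38. GATM, the first enzyme of creatine synthesis, known from kidney, read 11.86 and 11.79. UNC13C, a synaptic vesicle priming factor, read 11.28 and 11.27. MYO6, an actin motor, read 11.06 and 10.98, STXBP6 read 11.15 on both arrays and MACROD2 read 11.61 and 11.65. By chromosome, the share of bright genes ran from 6.77% on chromosome 9 to 17.1% on chromosome 14, where 96 of 563 genes were bright.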
